A study of Caenorhabditis elegans with 2 samples.

Results

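The 35 genes described here code for the transport machinery of sensory cilia in the nematode Caenorhabditis elegans. They comprise 14 genes of intraflagellar transport (IFT) complex B and 6 genes of IFT complex A. A further 7 genes belong to the ciliary kinesin and dynein motors and 8 are grouped with the BBSome. Among these 8 is arl-6, the gene of the small GTPase that recruits the BBSome to membranes. The 35 genes were taken by name out of 19973 protein-coding genes of the annotation. The data were ChIP-seq peaks, in which fragments of chromatin pulled down through the GFP part of a tagged DAF-19 protein were sequenced to map where the protein sat on DNA. All larvae came from strain OP794, in which the array wgIs794 carries daf-19 fused to TY1, EGFP and 3xFLAG tags together with unc-119(+), in an unc-119 (tm4063) mutant background. They were whole L4 larvae 48 hours of age, synchronised by bleaching and by starving the hatched L1 animals. These larvae form 1 group of 2 replicates, which the labels call biological, without another condition beside it. The counts over the ciliary genes were therefore set beside the same counts over all protein-coding genes, and no test over samples exists.

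Cilia are built and kept up by IFT trains, multiprotein assemblies that carry cargo along the axoneme. Complex B and kinesin motors serve transport toward the ciliary tip, complex A and ciliary dynein serve the return, and the BBSome is a protein coat that travels with the trains and links membrane cargo to them. DAF-19 is the RFX-family transcription factor of the worm, and its known DNA element, the X-box, is an imperfect inverted repeat close to the start of many ciliary genes. In the worm nearly all ciliated cells are sensory neurons, a small part of the animal, and in chromatin of whole larvae fewer cells with a bound site and less binding per cell cannot be told apart.

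The promoter window of a gene covered 1000 bp before and 200 bp after every annotated transcript start. An X-box, meaning a match of 14 bases to the X-box consensus on either strand, lay in the window of 27 of the 35 genes (77.1%), against 12.4% of all protein-coding windows. It lay within 100 bp of a transcript start in 23 of the 35 genes (65.7%), against 2.42% of all genes. All 8 BBSome genes, 12 of 14 complex B genes and 5 of 6 complex A genes had one, and 2 of 7 motor genes did, the dynein genes xbx-1 and dylt-2. The 8 genes without a match were osm-1, ift-81, ift-43, klp-11, klp-20, kap-1, osm-3 and che-3. With 1 mismatch allowed all 35 genes had a match, as did 87.4% of all windows. A match is a description of the reference sequence and not a bound site. Which genes the consensus was drawn from was not checked. If some of the 35 were among them, their matches were set in advance.

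The X-boxes below were chosen to show how the element differs between the complexes, and which ones had a peak summit close by. Each line gives 30 bases of the WBcel235 (ce11) reference, 5′ to 3′ on the strand where the match was read, with the 14 bases of the X-box in capitals. A match that read on both strands is shown on the strand of the gene.
dyf-6 (complex B, chrX:10386535-10386564, + strand): tgtggcaaGTAACCATGGAGACccggaaag
ifta-2 (complex B, chrIV:17302018-17302047, - strand): tattctctGTTGCTATGGCAACtgaaaacc
che-2 (complex B, chrX:481313-481342, + strand): gccagctgGTTGTCATGGTGACtgctcgcg
osm-6 (complex B, chrV:11927485-11927514, - strand): atccacatGTTACCATAGTAACcactcatt
ift-74 (complex B, chrII:6679962-6679991, + strand): tattacatGTTTCCATGGAAACggtgttcg
osm-5 (complex B, chrX:2984155-2984184, + strand): cttacataGTTACTATGGCAACgctccgct
che-11 (complex A, chrV:12150753-12150782, - strand): cgagcaaaATCTCCATGGCAACcaaaacac
daf-10 (complex A, chrIV:9146252-9146281, - strand): gcctgtgaATCTCCATAGCAACcaatgctt
ifta-1 (complex A, chrX:5552788-5552817, + strand): caagcgttATTGCCATGGCAACgcgcagtt
ift-139 (complex A, chrIII:6039501-6039530, + strand): tgaggcggATTGCCATGGTAACcgggagaa
xbx-1 (dynein, chrV:14980267-14980296, + strand): gaacgcccGTTTCCATGGTAACcgtcattt
dylt-2 (dynein, chrX:8940199-8940228, - strand): ggcaacgcGTTGCCATGACAACtaagctgt
bbs-4 (BBSome, chrIII:9612234-9612263, - strand): gtccgcgaGTTTCCATGGCAACggcaagga
bbs-8 (BBSome, chrV:6765080-6765109, - strand): cgtgccctGTACCCATGGCAACgacacgtc
osm-12 (BBSome, chrIII:12202536-12202565, - strand): cagctcatGTTGCCATAGTAACtcgacaac

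In the sequences shown, the complex A X-boxes began with A and those of the other complexes with G. Over the X-box nearest a start in each gene, 4 of the 5 in complex A began with A, and that of dyf-2, not shown, began with G. The count was 1 of 12 in complex B, 0 of 2 in the motors and 1 of 8 in the BBSome (arl-6). Across all 2483 protein-coding genes with an X-box in the window, 68.3% of those nearest a start began with A. A narrower consensus, which requires G as the first base and A at 2 further positions, was met by 10 of 12 of these X-boxes in complex B, both in the motors and 7 of 8 in the BBSome, and by none of the 5 in complex A. In any position of the window, 20 of the 35 genes met the narrower consensus, against 1.32% of all protein-coding windows. The source genes of the narrower consensus were not checked either. The element of 17 of the 27 genes matched the consensus when read on either strand, and none of those 17 was in complex A. A match on both strands needs G as the first base, as the narrower consensus does. The 4 complex A X-boxes that began with A could therefore meet neither, and these 2 counts add nothing to the first base for them.

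The position of the element was also narrow. It lay within 100 bp of a start in 85.2% of the 27 genes, against 19.5% of the 2483 protein-coding genes with an X-box. For the other position values of this paragraph no share over all genes is given. The median distance from the X-box nearest a start to that start was 45 bp, and to the start codon 88 bp. It lay upstream of the start codon in 26 of 27 genes and from 50 to 250 bp upstream of it in 25. The exceptions to this range were ifta-2, whose X-box was centred 1 bp from the start codon, and arl-6, whose nearest match lay 314 bp upstream. In 7 genes the X-box lay downstream of the nearest transcript start. In 21 it was listed on the strand of the gene. The elements of 17 genes matched on both strands and were put on the strand of the gene by rule. The count of 21 therefore shows no preference for a strand. The 27 genes held 35 matches in all, since 6 genes (dyf-1, dyf-6, ift-74, che-11, dyf-2 and arl-6) held more than 1.

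**Figure D1:**
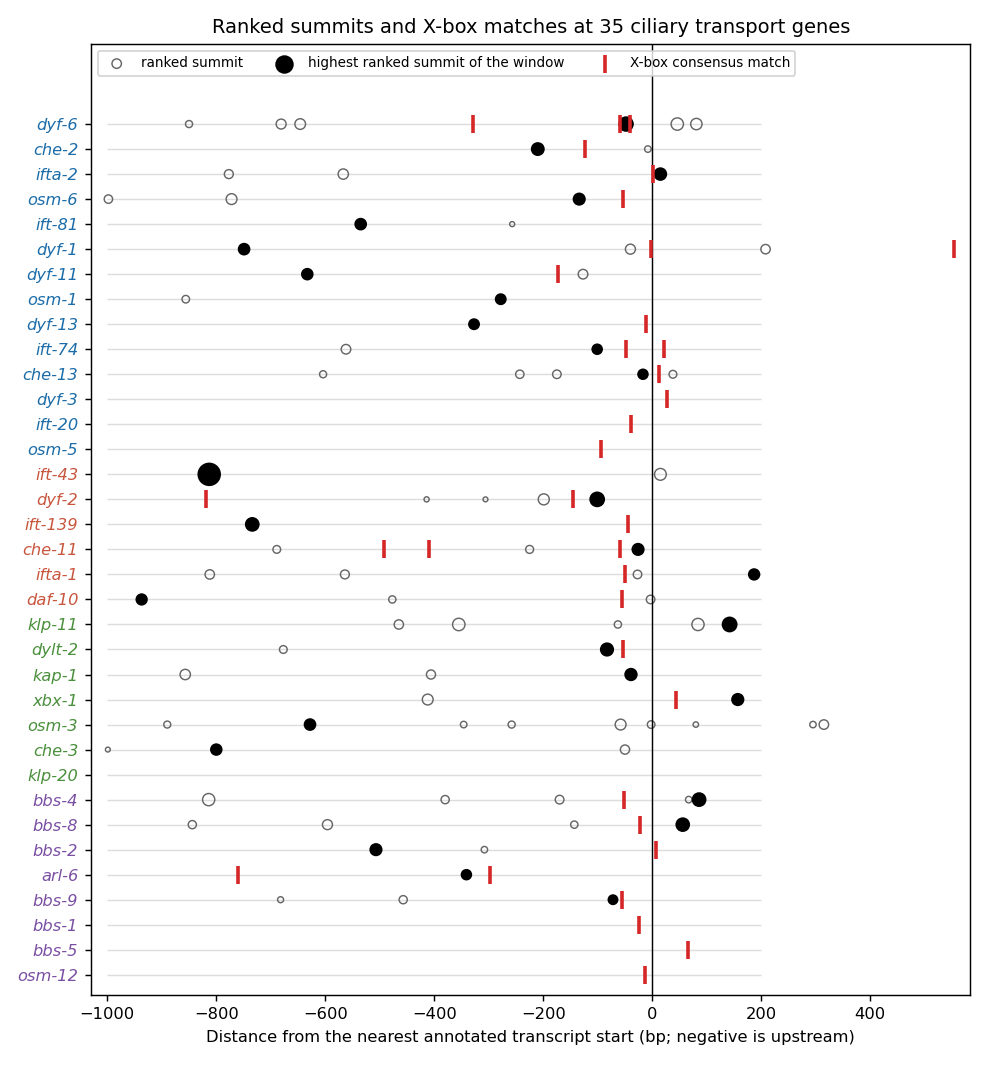
Promoter windows of the 35 genes, with distance from the nearest annotated transcript start in bp on the x axis and 1 gene per row, names coloured by complex (blue IFT complex B, red IFT complex A, green motors, purple BBSome). Open circles are ranked summits of the series-wide list, filled circles the highest of each window, circle area grows with signal, and red bars are X-box matches, most of which stand within 100 bp of a start, while the filled circles spread over the whole window.

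The peaks came from ranked lists, which reach down to weak peaks. They hold 117986 peaks in the list for both replicates together, 112641 for replicate 1 and 110961 for replicate 2. Whether they hold every candidate peak of the authors' caller is not known. Each peak has a signal value on the authors' own scale, whose relation to depth is not stated, and an irreproducible discovery rate (IDR), the estimated rate at which peaks of that rank fail to recur between replicates or between parts of one sample. The authors' thresholded lists hold the ranked peaks with an IDR of 0.01 or less, 996 for both replicates together, 408 for replicate 1 and 394 for replicate 2. No file gives read counts, so sequencing depth is unknown. Summits were not spread evenly: 1081 stretches of over 10 kb, 35.2% of the genome in total, hold no ranked summit in the series-wide list used here. Whether the caller gave no peak there or peaks were left out of the lists could not be worked out. The files hold no expression values, so the state of the ciliated neurons was not checked against markers.

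Of the 35 genes, 1 had a thresholded summit in its promoter window, the complex A gene ift-43, and it did so in each of the 3 lists. That share (2.86%) stood beside 2.48% of all protein-coding genes in the series-wide list, 1.08% in the replicate 1 list and 0.976% in the replicate 2 list. The ciliary transport genes as a set were thus thresholded about as often as any protein-coding gene, and the single gene does not separate them from that background. At an IDR of 0.05 there were 3 genes, dyf-6, dyf-2 and ift-43, against 6% of all genes.

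A ranked summit of any strength was present in the windows of 28 genes. The other 7, osm-5, dyf-3, ift-20, klp-20, bbs-1, bbs-5 and osm-12, had none in any of the 4 ranked lists (2 for both replicates together and 1 for each), and the windows of all 7 lay inside the stretches of over 10 kb that hold no ranked summit. These 7 make up 20% of the set, against 30.2% of all protein-coding genes without a ranked summit. For each gene the highest signal in the window was ranked among all protein-coding genes, with genes lacking a summit sharing the lowest rank, at percentile 15.1. The median percentile of the 35 genes was 59.5 in the series-wide list, 61.5 in replicate 1 and 57.9 in replicate 2, where all genes have a median of 50. Among genes with a ranked summit alone the median percentile of the 28 was 52.5, and 15 of the 28 stood above the 50th percentile. Their median signal was 55.48 against 54.28 for all genes with a summit, with 36.23 against 31.33 in replicate 1 and 28.34 against 27.34 in replicate 2. In the top 10% of all genes stood 4 of the 35 (11.4%): ift-43, klp-11, dyf-2 and dyf-6. Of these, ift-43 and dyf-2 were at or above the 90th percentile in both replicate lists, as were 4.29% of all genes. Ranked among genes with as many transcript starts, 2 of the 35 stood that high.

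**Figure D2:**
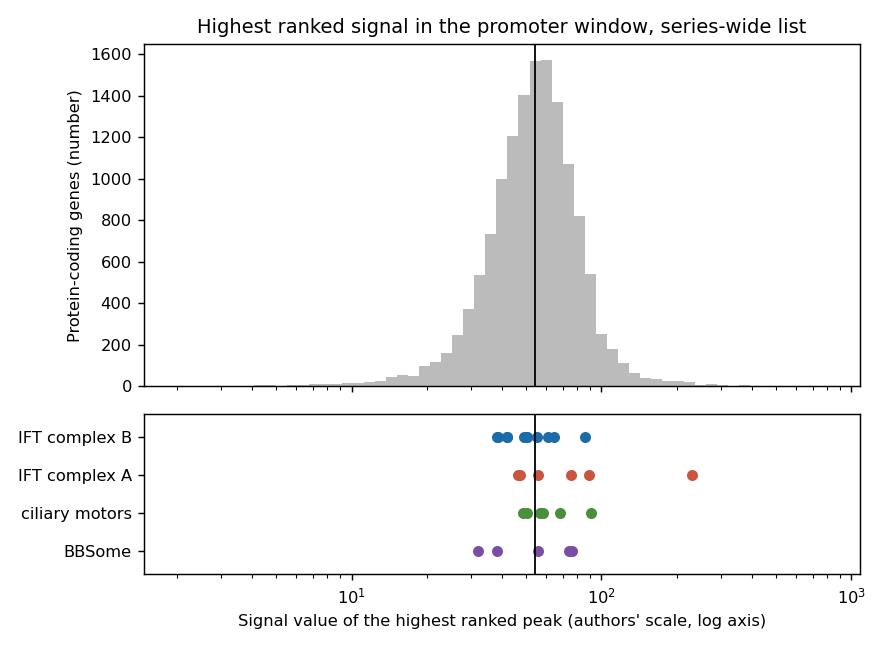
Upper panel, number of protein-coding genes by the signal of their highest ranked peak in the promoter window (authors' scale, log axis); lower panel, the 28 ciliary transport genes with a ranked summit, 1 point per gene, on the same axis by complex. The vertical line is the median of all genes, 54.28, and the points lie on both sides of it from 32.18 to 230.7, with ift-43 alone far to the right.

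Replicate values below are those of the highest summit of the window in each replicate list, which need not be the summit that is highest in the series-wide list. In 13 of the 28 genes the highest summits of both replicates lay within 200 bp of the series-wide one. In 8 genes only that of replicate 1 did, in 5 only that of replicate 2, and in 2 (dyf-13 and osm-3) neither. Where they differ, the replicate's own summit nearest to the series-wide one is given as well.

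Complex B genes had a median percentile of 53.0, and 11 of the 14 had a ranked summit, with signals from 38.13 to 85.95. The strongest was dyf-6 (WBGene00001122, chrX:10379693-10386508, - strand), the worm gene for IFT46. Its highest summit, 48 bp upstream of a start and between genes, had a signal of 85.95 with an IDR of 0.0423 (percentile 93.4). Replicate 1 gave 41.57 (percentile 85.6) and replicate 2 gave 44.76 (percentile 93.8), and the highest summits of both replicates lay 45 bp apart. This summit fell 7 bp from the centre of the X-box printed above, the shortest such distance among the 35 genes, and in the replicate lists it fell 15 bp and 30 bp from it.

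Next in complex B came che-2, the IFT80 gene, with a signal of 64.69 at percentile 78.5 and an IDR of 0.494, 87 bp from its X-box. Replicate 1 gave 41.47 (percentile 85.4) 15 bp from that summit. Replicate 2 gave 19.69 (percentile 44.4) 188 bp from it, and 15.35 at its nearest summit. The gene ifta-2, for a RAB-like small GTPase of the IFT particle, had a signal of 60.91 (percentile 74) at a summit 14 bp from its X-box. Replicate 2 had its highest summit there too, with 43.87 (percentile 93.2). In replicate 1 the nearest summit was 584 bp from it, with 29.85 (percentile 61.3), so this site was found in 1 replicate list. The IFT52 gene osm-6 had a signal of 55.44 (percentile 66.8), 81 bp from the X-box. At this site replicate 1 gave 29.31 and replicate 2 gave 23.21 (percentile 53.3), while the highest replicate 1 summit, 35.66 (percentile 75.2), lay 687 bp away. For dyf-11, the IFT54 gene, the highest summit lay 633 bp upstream with a signal of 49.2 at percentile 57.9 (23.65 and 30.83 at the same site in replicates 1 and 2, percentiles 46.5 and 73.8), and a weaker one of 37.26 lay 45 bp from its X-box. The IDR of the highest summit was over 0.3 in each of these 4 genes, far above the 0.01 of the authors' threshold.

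The lowest complex B genes with a summit were che-13 and ift-74. The IFT57 gene che-13 had a signal of 38.13 at percentile 43.3, at a summit 30 bp from its X-box. The highest replicate 1 summit, 20.13 (percentile 39.8), lay 164 bp from it. In replicate 2 the nearest summit had 26.88, and the highest, 33.63 (percentile 80.3), lay 5623 bp away at another start. For ift-74, which codes for a core subunit of complex B, the signal was 38.73 at percentile 43.9, at 53 bp from the X-box printed above. Replicate 2 gave 23.39 there (percentile 53.7), and replicate 1 gave 19.61, with its highest summit, 20.49 (percentile 40.4), 456 bp away. The IFT172 gene osm-1 had 42.08 (percentile 48.1), with 41.44 at the same site in replicate 1 (percentile 85.4) and no replicate 2 summit within 500 bp, where the highest was 16.67 (percentile 38.4). The IFT56 gene dyf-13 had 42.02 (percentile 48), with 26.93 and 23.6 at that site in the replicates. Higher values in dyf-13, 45.24 (percentile 89.9) and 34.05 (percentile 81), stood at replicate summits 83 bp apart and over 500 bp from the series-wide one, so its rank depended on the list. The IFT70 gene dyf-1 had 50.42 (35.86 and 13.39 at the nearest replicate summits) and ift-81, the partner of ift-74, had 50.48 (27.18 and 20.32). None of these 4 genes had an IDR under 0.3 in the series-wide list. The highest ift-81 summit lay in an exon of ags-3 and also in the promoter window of that gene, and the series-wide summit of dyf-13 had the small RNA gene C27H5.11 within 200 bp. The complex B genes without a ranked summit were osm-5 (the IFT88 gene), dyf-3 (the CLUAP1 gene) and ift-20.

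**Figure D3:**
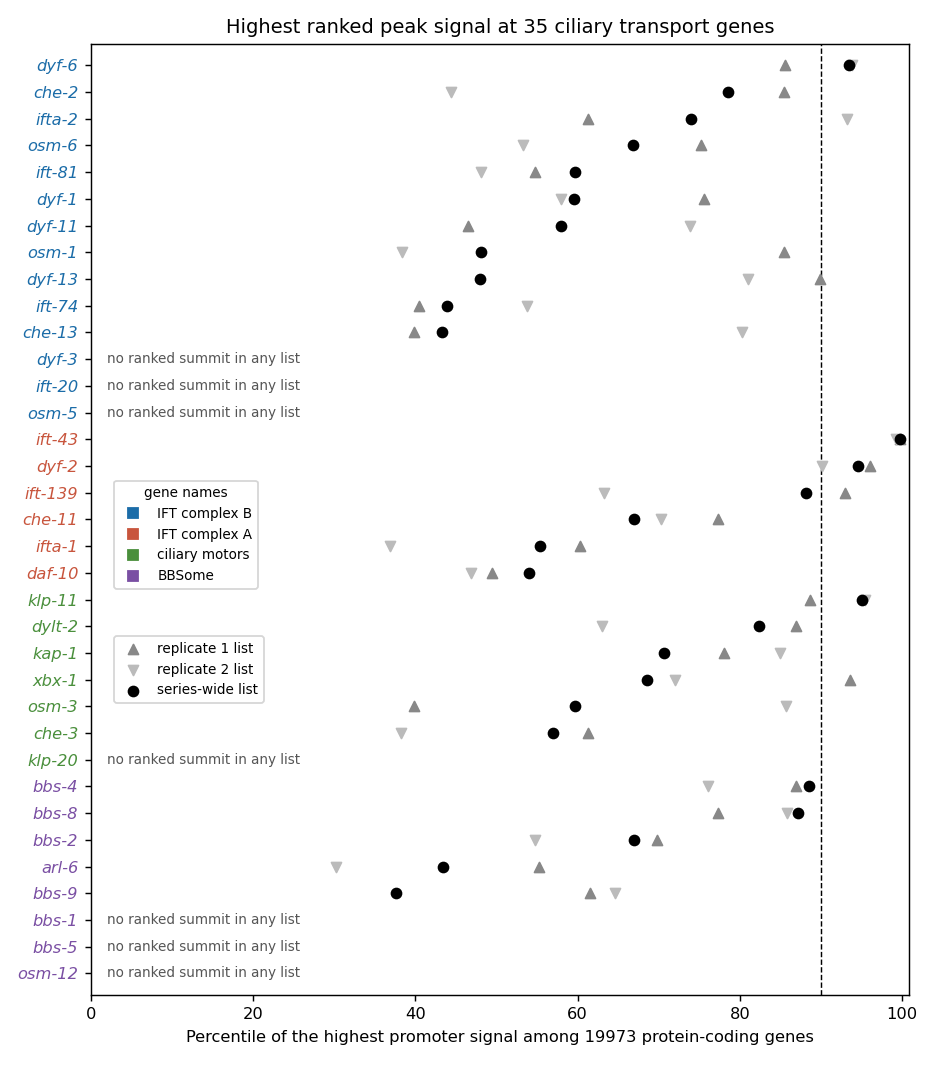
Percentile of the highest promoter signal of each of the 35 genes among 19973 protein-coding genes, for the series-wide list (black circles) and for the highest summit of the window, not always the same one, in replicate 1 (upward triangles) and replicate 2 (downward triangles), with genes grouped by complex and the dashed line at the 90th percentile. The gene ift-43 stands at 99.8, 99.8 and 99.3, che-2, osm-1, che-13 and osm-3 have the replicate percentiles farthest apart, and 7 genes have no ranked summit.

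All 6 complex A genes had a ranked summit, with a median percentile of 77.5 and signals from 46.44 to 230.7. The gene ift-43 (WBGene00016121, chrII:5659881-5660786, - strand) codes for a small subunit of the complex. Its highest peak, chrII:5661409-5661788 with the summit at 5661599, had a signal of 230.7 and an IDR of 0.000474 (percentile 99.8). Replicate 1 gave 142.6 with an IDR of 0.000674 and replicate 2 gave 75.89 with an IDR of 0.0044, at percentiles 99.8 and 99.3. The highest summits of both replicates lay 15 bp apart, so this is a place where the replicates gave the same peak. It lay 813 bp upstream of the ift-43 start, inside an exon of the neighbouring gene mdt-26, a Mediator subunit gene, and ift-43 was among the 8 genes without an X-box. With a window of 500 bp upstream and 100 bp downstream, or with each summit given to the gene of the nearest start, the count of thresholded genes was 0. A second ift-43 summit, 15 bp downstream of the start, had a signal of 61.34.

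Just outside the authors' threshold was dyf-2 (WBGene00001118, chrIII:13674879-13686445, - strand), the IFT144 gene, with an IDR of 0.0211 against 0.000474 for ift-43 inside it. Its signal was 89.08 (percentile 94.5), with 55.5 in replicate 1 (percentile 96.1) and 40.17 in replicate 2 (percentile 90.1), and the replicate summits lay 28 bp apart. This summit, at 13678607, lay in a dyf-2 intron, upstream of an internal start of the gene, and also in the promoter window of sid-2, a dsRNA uptake gene. The dyf-2 X-box near the other start had a different, weaker summit 53 bp away, with a signal of 52.1 (23.37 and 7.467 for the nearest summits of the replicate lists). High rank and proximity to the X-box thus fell on separate summits of the same gene.

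In ift-139, the gene of the IFT139 subunit, the highest summit lay 734 bp upstream and reached 75.6 (percentile 88.2), while replicates 1 and 2 gave 48.82 (percentile 92.9) and 26.74 (percentile 63.3). The ranked summit nearest its X-box, printed above, was 435 bp away. The IFT140 gene che-11 had its highest summit 34 bp from the X-box, at 55.51 (percentile 66.9), and replicates 1 and 2 gave 36.61 and 29.42 (percentiles 77.3 and 70.3). The summits nearest the X-boxes of the IFT121 gene ifta-1 and the IFT122 gene daf-10 were weak, 27.13 at 23 bp and 27.12 at 52 bp. The highest summit of ifta-1 was elsewhere, at 47.38 (percentile 55.3), with 29.43 at that site in replicate 1 (percentile 60.3). In replicate 2 the highest ifta-1 summit, 15.8 (percentile 36.9), was the one near the X-box, 11 bp from it. For daf-10 the highest was 46.44 at percentile 54 (24.94 and 20.81 at the same site in the replicates, percentiles 49.5 and 46.9), at a summit 937 bp upstream that also lay in the windows of aly-2 and rpb-12.

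Of the 7 motor genes, 6 had a ranked summit, with a median percentile of 68.5 over all 7 and signals from 48.53 to 90.99. Kinesin-II of the worm is built from klp-11, klp-20 and kap-1. The motor subunit gene klp-11 (WBGene00002222, chrIV:8756735-8762066, - strand) had a signal of 90.99 with an IDR of 0.0659 (percentile 95), in an intron 142 bp downstream of an internal start. At this site replicate 1 gave 44.24 (percentile 88.7) and replicate 2 gave 35.63. The highest replicate 2 summit of klp-11 was another one, 47.57 (percentile 95.4), 5049 bp away at a different start. The adaptor gene kap-1 had 58.3, with 33.67 and 36.3 at that site in replicates 1 and 2, while a slightly higher replicate 1 summit (36.95) lay 976 bp away. The gene klp-20, the partner of klp-11, had no ranked summit.

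The second anterograde motor of worm cilia, the kinesin gene osm-3, held 9 ranked summits over its 4 annotated starts, the most of any of the 35 windows. The highest had a signal of 50.49 and lay in an exon of algn-14, where the nearest replicate summits had 17.46 and 20.39. The highest replicate summits, 20.13 and 36.74, lay over 2000 bp away at other starts. Among the ciliary dynein genes the highest was dylt-2, for a light chain, with 68.4 (percentile 82.4), at a summit 29 bp from its X-box. Replicate 1 gave 42.62 (percentile 86.9) 7 bp from it and replicate 2 gave 26.65 (percentile 63) 159 bp from it. The light intermediate chain gene xbx-1 had 56.67 at 113 bp from its X-box, with 49.76 and 13.75 at that site in the replicates and a higher replicate 2 summit (30.02) 570 bp away. The heavy chain gene che-3 had 48.53 (29.84 and 16.6 at the same site in the replicates). All of these had an IDR over 0.1.

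The 8 BBSome genes had a median percentile of 40.5 in the series-wide list, in which the 3 genes without a ranked summit, bbs-1, bbs-5 and osm-12 (the BBS7 gene), take part. Among genes with a summit the median percentile of the other 5 was 52.7, above the 42 of complex B, so in this list the order of these complexes turned. Replicate 2 turned likewise, from 42.5 and 53.5 with all genes counted to 49.7 and 40.2 among genes with a summit. Replicate 1 went the other way, from 58.4 for the BBSome and 58.0 for complex B to 56.9 and 64.6. Signals of these 5 ran from 32.18 to 76.19. The highest was bbs-4 (WBGene00043992, chrIII:9609390-9612197, - strand), with 76.19 at percentile 88.5, 42.64 in replicate 1 (percentile 86.9) and 31.79 in replicate 2 (percentile 76.1). The replicate lists gave the same summit position for bbs-4 to the base, 73 bp from its X-box, whereas the nearest series-wide summit was 119 bp away. Next was bbs-8, with 74.23 at percentile 87.2, 36.61 in replicate 1 (percentile 77.3) and 36.82 in replicate 2 (percentile 85.8), at replicate summits 3 bp apart and 78 bp from the X-box in the series-wide list. Both genes thus had summits at matching positions in the replicates, with IDR values of 0.106 and 0.105.

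The core subunit gene bbs-2 had 55.6 at a summit in an exon of gcy-8, with 33.31 and 17 at the nearest replicate summits and a higher replicate 2 summit (23.82) 667 bp away. The series-wide summit nearest its X-box was 315 bp from it. At the low end stood arl-6, the gene of the small GTPase that recruits the BBSome to membranes, with 38.2 at percentile 43.4. It had 27.34 at the same site in replicate 1 (percentile 55.2) and 5.812 in replicate 2 (percentile 30.2), and the highest IDR of the 28 genes, 0.737. This summit lay 43 bp from its X-box. The lowest signal of all was that of bbs-9, 32.18 at percentile 37.6, and it lay 16 bp from the X-box. The replicate summits nearest the X-box were 176 bp away in replicate 1, with 24.76, and 99 bp away in replicate 2, with 27.26 (percentile 64.6). The highest replicate 1 summit of bbs-9, 29.9 (percentile 61.5), lay 408 bp from the series-wide one.

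Over the 28 genes with a ranked summit, the highest summit was intergenic in 16, in an exon in 8 and in an intron in 4. It lay within 200 bp of a start in 15 genes and over 500 bp away in 9, at a median of 172 bp. In 25 genes it fell in no other protein-coding window. No share over all genes is given beside these location counts, so they do not set the 28 genes apart from other promoters. The highest summits of the replicates lay within 200 bp of each other in 14 of 28 genes (50%), against 56.3% of the 13381 protein-coding genes ranked in both replicates. As a description across genes, which share both libraries and are not independent, the Spearman rho of the replicate percentiles was 0.397 over the 28 genes and 0.416 over the 13381. Both values stood close to those of protein-coding genes at large.

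The distance between summits and X-boxes showed a different picture. Of the 21 genes with both an X-box and a ranked summit in the window, 15 (71.4%) had a ranked summit within 100 bp of an X-box, against 38.5% of the 1805 such protein-coding genes. They were che-2, che-13, osm-6, dyf-6, dyf-11, ift-74, ifta-2, che-11, daf-10, dyf-2, ifta-1, dylt-2, arl-6, bbs-8 and bbs-9. For the X-box nearest a start, the count was 14 of 21 (66.7%), with a median distance to the nearest summit of 53 bp. Over all 1851 protein-coding genes outside the stretches without summits, 36% had one that near, with a median of 146 bp. Where the X-box lay within 100 bp of a start, the ciliary transport genes gave 10 of 17 (58.8%), with a median of 78 bp. Other protein-coding genes gave 37.7% of 337, with a median of 133 bp. In replicate 1 that comparison gave 41.2% against 38%, with medians of 128 and 146 bp. In replicate 2 it gave 58.8% against 37.1%, with medians of 78 and 140 bp. With the narrower consensus it gave 54.5% of 11 against 34.2% of 38 in the series-wide list, but 27.3% against 34.2% in replicate 1, so the direction turned there. The summits stood over 200 bp away in 4 genes, dyf-1, dyf-13, ift-139 and bbs-2. The count of 15 fell to 9 when a summit had to lie within 50 bp, and to 9 with the narrower consensus.

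These counts were smaller in replicate 1 than in replicate 2: 10 of 21 X-boxes nearest a start had a summit within 100 bp in the replicate 1 list and 14 of 21 in the replicate 2 list, with 9 in both and 6 in neither. All protein-coding genes gave 34.6% and 35.2% in the replicate lists. A point 50 bp upstream of the first start, taken without regard to sequence, had a ranked summit within 100 bp in 13 of the 21 genes with an X-box (61.9%), in 2 of 7 without one and in 36.7% of all 14259 genes. In the series-wide list the X-box thus had a summit near it in 1 gene more than that point did. For the point, the replicate 1 list gave 8 of 21 genes, against 10 for the X-box. The replicate 2 list gave 14 of 21 for both. Whether the summits follow the X-box or the promoter was not tested. Ranked summits were dense, so that 39.9% of the bases of these windows lay within 100 bp of one.

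**Figure D4:**
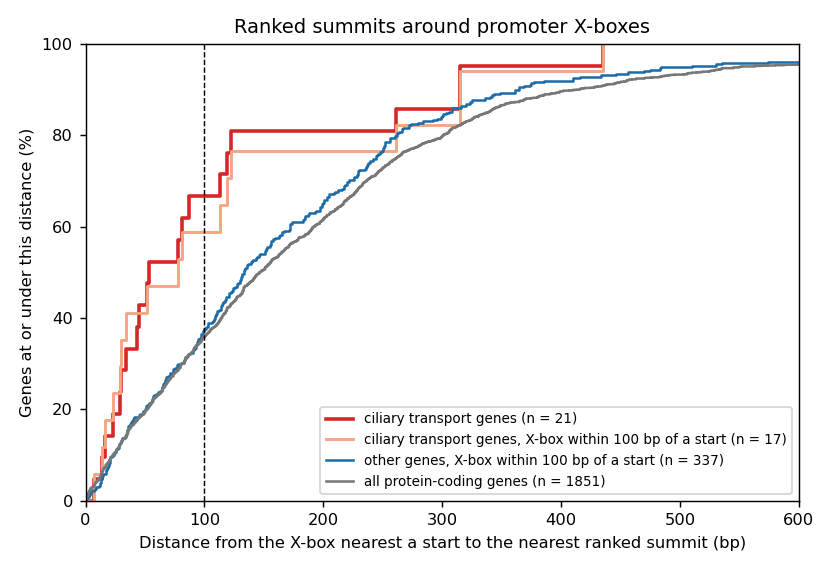
Share of genes, in percent on the y axis, whose X-box nearest a start has a ranked summit of the series-wide list at or under the distance on the x axis, in bp. The curve of the 21 ciliary transport genes passes 66.7% at 100 bp (dashed line), and that of all 1851 protein-coding genes 36%. With the X-box within 100 bp of a start, the curve of 17 ciliary transport genes (58.8%) lies above that of 337 other genes (37.7%).

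The summits near X-boxes were all under the authors' threshold, which 996 of the 117986 ranked peaks passed. The 14 nearest ones had signals from 27.12 to 85.95 with a median of 53.77, and a median percentile of 78 among all ranked peaks of the list. The median of all ranked peaks was 34.92, and that of the highest promoter summit over all genes with one was 54.28. The most reproducible summit near an X-box, at dyf-6, had a −log10 IDR of 1.37 where the threshold is 2. In 10 of the 14 genes the summit near the X-box was the highest of its window. Ranks with and without an X-box depended on how genes lacking a summit were counted. The 27 genes with one had a median percentile of 57.9, with 2 in the top 10%, and the 8 without one had 59.7, also with 2. Among genes with a summit the order turned in the series-wide list, with 52.5 for 21 genes with an X-box and 42.3 for 7 without. It did not turn in replicate 1, with 65.2 and 68.6, or in replicate 2, with 49.7 and 78.6. Over all protein-coding genes the medians were 54.5 with an X-box and 49.3 without, and a thresholded summit was present in 2.22% and 2.52%.

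Of 39 other ciliary genes (transition zone, other ciliary and male-specific lists), 28 had a ranked summit, 1 had a thresholded one (2.56%) and 8 were in the top 10% (20.5%), with a median percentile of 53.3. An X-box was present in 23 of the 39 (59.0%). Their highest signals were at tmem-107, a transition zone gene, with 304.7 (169.5 and 144.4 in the replicates), at mks-5, the scaffold gene of that zone, with 102.4 (51.4 and 43.37), and at pkd-2, the polycystin gene of male sensory neurons, with 91.82 (49.14 and 44.31). The difference between these genes and the 35 transport genes was not tested.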

How the data were processed

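Per the labels, chromatin of 2 biological replicates of whole L4 larvae was sonicated to 200 to 800 bp and precipitated with anti-GFP. How the cultures were grown is not stated. A control experiment is named there and was not analysed here. The authors deposited 8 peak lists on ce11, a ranked and a thresholded one per replicate, and 2 such pairs for both replicates together. The ranked list of the pair with 996 thresholded peaks was the main one. The deposited signal values are on the authors' own scale. Their normalization, the aligner, the peak caller and the filters were not given in the sources used here. Signal was used to describe and rank peaks within a list. The deposited −log10 IDR was 2 or more for exactly the peaks of each thresholded list. In each series-wide ranked list, 8 further unnamed columns were not used. Depth is unknown.

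Summits were assigned to promoter windows of protein-coding genes of Ensembl release 115 (WBcel235), 1000 bp upstream to 200 bp downstream of any transcript start, and the X-box consensus was searched in the RefSeq genome sequence of the same build. X-box distances run from its centre. With 1 group, counts were described and no test was made. The 35 genes and the other lists were chosen with earlier results of these data known. Of 75 genes listed, 1 (tmem-216) was not found. Values are given in full, by rule, for genes with a thresholded summit, the 6 highest and 4 lowest percentiles, those on either side of the threshold, and those with a summit within 100 bp of an X-box. Alternatives were other windows, thresholds, rankings, backgrounds, consensus sequences and distances, each replicate alone, and leaving out stretches of over 10 kb without summits, chosen after seeing the data. Scripts were tested on simulated data (Python 3.11.15, numpy 2.4.6, pandas 2.3.3, scipy 1.17.1, matplotlib 3.10.9).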

Additional observations from a re-analysis of the deposited data

How the results depend on the processing

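The count of 1 gene with a thresholded summit became 0 with a window from 500 bp upstream to 100 bp downstream and when summits were given only to the gene with the nearest start, 2 with a window reaching 2000 bp upstream, and 3 at an IDR of 0.05, and stayed at 1 under the other alternatives run. The median percentile of 59.5 became 62.5 with the shorter window, 64.1 with summits given to the nearest start, 52.5 without genes lacking a summit, and 53.6 without genes in the long stretches lacking summits (chosen after seeing the data). The 4 genes in the top 10% became 7 with the longer window and 2 when ranked among genes with as many transcript starts. The 15 genes with a summit near an X-box became 9 with the stricter consensus, of 20 genes with such an X-box, and 9 within 50 bp. With each replicate list alone, the thresholded count was 1 in both, the median percentile ran from 57.9 to 61.5, the genes in the top 10% from 4 to 5 and the summits near an X-box from 11 to 15. Of 378 single-gene percentiles recomputed, 146 moved by 1 SD of the replicate values or more. The cause was not tested. That SD comes from 2 values and can be very small, so the count does not measure how far ranks moved. Without replicate 1, osm-5, which has no ranked summit, counted as moved from 15.1 to 14.8, and ift-43 from 99.8 to 99.3. No paired analysis was possible because there is only 1 group. Unknown depth and weak, dense summits limit any single gene below the threshold.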
